A study of Mus musculus with 4 samples.

Results

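Penk Scara5 fibroblasts are stromal cells of the mouse small intestine picked out here by a combination of genes that few other cells of the sort carry together. A cell was counted as a member if its value was above 0 for at least 4 of the 6 genes Inmt, Penk, Vit, Scara5, Igfbp6 and Ebf2, if its value for Sox6 was 0, and if fewer than 3 of the 4 genes Chodl, Dner, Thbs2 and Ptn, which mark the Fibin fibroblasts of the same tissue, were above 0. Of 16891 cells profiled on the 10X Genomics platform, 1223 met this rule. They made up 285 of 2547 cells in 10X library 1, or 11.2% (exact Clopper-Pearson 95% interval 9.99% to 12.5%), and 938 of 14344 cells in 10X library 2, or 6.54% (6.14% to 6.96%). The members were chosen by the measured values of these 11 genes, so the values of these genes are given as a description and are not tested.

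The study profiled stromal cells of the whole small intestine that carry gp38, also called podoplanin. Small intestines of wild type C57Bl/6 mice, adult males by the protocol of these samples and 8 weeks old by the labels, were digested with Liberase TL. The general methods of the study speak instead of cohorts of both sexes. Live single cells negative for CD45 (leukocytes), EpCAM (epithelium) and CD31 (endothelium) and positive for gp38 were sorted and captured as 2 10X Genomics libraries. All cells of both libraries share this genotype, strain, tissue and gate, no animal was treated, and the members and the cells they are compared with came from the same libraries. The sources used here do not give the number of mice behind a library. Libraries therefore served as replicates (n = 2), and p-values measure only the spread between these libraries, which may be technical.

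A gut fibroblast is named by where it lies. Crypt fibroblasts make the Wnt amplifiers (R-spondins) and BMP antagonists such as Grem1 that keep the stem cell zone going, villus fibroblasts make Adamdec1, and subepithelial fibroblasts line the epithelium and make BMPs. Deeper in the wall, fibroblasts of the submucosa and of the vessel adventitia carry Pi16, Dpp4 and Ly6a and are known from many organs as a reservoir of matrix-forming cells. The serosa is covered by mesothelium, a squamous epithelium that holds keratins, mesothelin and uroplakins beside Wt1, a zinc finger transcription factor that fibroblasts under the serosa can also express.

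The members' cells were deeper than the rest. The median total per cell was 9953 unique molecular identifiers (UMIs, each a counted transcript) in library 1 and 8084.5 in library 2, against 8596 and 6787.5 in all other 10X cells. Members ranged from 753 to 20499 and from 1155 to 22169 UMIs. A deeper cell more easily shows 4 genes, and when every cell was first thinned to 2000 UMIs the rule kept only 2.66% and 1.98% of the cells. The libraries shared 7 barcodes, of which 1 was a member in library 1 and 0 were in library 2. Adamdec1, a villus gene, may be found in a cell as free RNA, that is as transcripts captured with cells that did not make them. A UMI of it was found in 72.2% of the 72 cells of library 2 that held the leukocyte gene Ptprc, and in 35.4% of the members of library 1 and 83.2% of those of library 2. The part of such free RNA in the members' low values was not tested.

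All 6 genes of the rule lie on different loci with unrelated products. Penk (chromosome 4 of GRCm38, 4133531 to 4138819, minus strand) encodes the enkephalin precursor, and a UMI of it was found in 94.4% of the members of library 1 and 92.8% of those of library 2. Igfbp6 (chromosome 15, 102144362 to 102149511), a binding protein that favours IGF-II, was found in 96.5% and 95.4%. Scara5 (chromosome 14, 65666403 to 65764826), a scavenger receptor that takes up ferritin, was found in 88.1% and 90.5%. These 3 genes were found in nearly every member.

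Inmt (chromosome 6, 55170626 to 55175043, minus strand), an indolethylamine methyltransferase, was found in 84.9% and 84.4% of the members. Vit (chromosome 17, 78508064 to 78627408), the matrix protein vitrin, was found in 74.0% and 71.7%. Ebf2 (chromosome 14, 67233292 to 67430918), an early B cell factor known from mesenchymal and adipocyte precursors, was found in 19.6% and 27.0%. Ebf2 was therefore the rarest of the 6 within the members.

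Outside the members the 6 genes had the same order of shares, at lower values. In all other 10X cells of library 1 and library 2, Igfbp6 was found in 47.1% and 37.3%, Penk in 30.1% and 26.5%, Scara5 in 19.1% and 17.6%, Inmt in 11.1% and 7.65%, Vit in 5.53% and 5.70%, and Ebf2 in 0.575% and 0.627%. Penk and Igfbp6 were thus common outside the members too, and Ebf2 was the rarest gene there as well. In the 72 Ptprc-detected cells of library 2, at a median of 5096.5 UMIs, the share was 16.7% for Igfbp6, 6.94% for Scara5, 4.17% for Penk, 2.78% for Inmt, 1.39% for Vit, and 0 of 72 for Ebf2, which allows up to 4.17%. Leukocytes should lack these genes, but 43.1% of the Ptprc-detected cells also held Pdgfra and 61.1% C3, so that they may include fibroblasts and doublets, and whether these shares are free RNA was not tested. Library 1 had 5 Ptprc-detected cells, of which 3 held Igfbp6, 2 Penk, 1 Scara5 and 0 the other three. These intervals and limits cover counting error only.

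**Figure D1:**
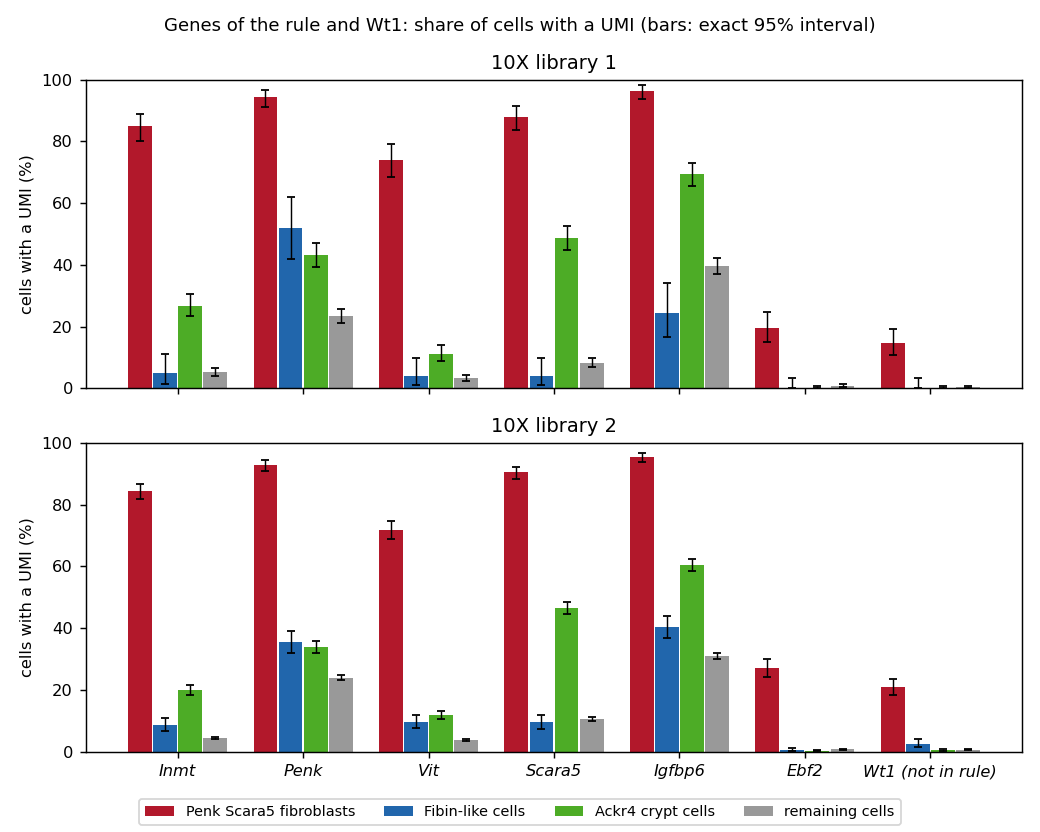
Share of cells with a UMI of each gene of the rule and of Wt1, in percent (vertical axis), for the Penk Scara5 fibroblasts, Fibin-like cells, Ackr4 crypt cells and all remaining cells of each 10X library; the bars' lines are exact 95% intervals. The members stand above every other group for the rule genes because the rule chose them so, while Wt1, at 14.7% and 20.9% of the members, was not part of the rule.

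When each gene was left out of its own rule and the cells were chosen by at least 3 of the other 5 genes, its share stayed far from that of the rest. Inmt was then found in 56.4% of 429 cells of library 1 and 52.3% of 1515 cells of library 2, and its level per 10,000 UMIs was 8.85 and 14.5 times that of the other cells. Ebf2 was found in 10.2% and 13.3% of the cells so chosen, against 0.650% and 0.675% elsewhere, a level 20.7 and 23.8 times higher. Penk was found in 75.1% and 69.2%, Scara5 in 70.9% and 72.1%, Igfbp6 in 82.8% and 82.0%, and Vit in 42.7% and 41.3%. Each gene was thus more frequent in cells chosen by the others, which is a description, as all 6 are genes of the rule. Cells with more of these genes were also deeper. Among cells that met the conditions on Sox6 and the Fibin genes, the median was 9899.5 and 7670.5 UMIs with 3 rule genes. It was 6405 and 5215 with 0. The part of depth in these shares was not tested.

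The most frequent combination was Inmt, Penk, Scara5 and Igfbp6 without the other two, in 290 members (23.7%). All of the 6 but Ebf2 were found in 281 members (23.0%), all 6 in 186 (15.2%), and Penk, Vit, Scara5 and Igfbp6 in 151 (12.3%). Of the cells with at least 4 of the genes, 2 of library 1 and 51 of library 2 were kept out for a Sox6 UMI, and a further 2 and 41 for their Fibin fibroblast genes.

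Cells with all 6 genes and cells with 4 had different shares of genes that the rule did not use, given here as a description. Wt1 was found in 3.09% of the 162 members of library 1 with 4 genes, 17.1% of the 82 with 5 and 56.1% of the 41 with 6. In library 2 the shares were 8.75% of 503, 26.9% of 290 and 51.0% of 145 members. Just outside the rule, cells with 3 genes held Wt1 in 1.12% of 268 and 2.14% of 980 cells.

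The crypt genes went the other way. Grem1, a secreted BMP antagonist, was found in 87.0%, 64.6% and 7.32% of library 1 members with 4, 5 and 6 genes, and in 73.0%, 43.4% and 17.9% of those of library 2. In cells with 3 genes its share was 85.4% and 79.2%. Ackr4, a scavenger of chemokines, was found in 87.0% and 67.4% of members with 4 genes and in 43.9% and 36.6% of those with 6.

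Ace, Gdf10, Dpp4 and Lpl were more frequent the more rule genes a member had. Ace, angiotensin-converting enzyme, was found in 19.1% and 18.1% of members with 4 genes and in 87.8% and 69.0% of members with 6. Gdf10, a TGF-beta family ligand, went from 13.6% and 14.5% to 82.9% and 67.6%, and the peptidase gene Dpp4 from 1.85% and 6.36% to 46.3% and 28.3%. Lpl, lipoprotein lipase, was found in 35.2% and 56.5% of members with 4 genes and in 92.7% and 93.1% of those with 6, but also in 77.2% and 72.4% of cells with 0 of the genes.

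Depth moved less along the same steps, with medians of 9988, 9561.5 and 10409 UMIs in library 1 and 7834, 8243 and 8645 in library 2 for 4, 5 and 6 genes, and its part in these gradients was not tested. As the strata are cut by the values that the rule used, shares that change from step to step do not tell a graded set from a mixture of kinds of cell. Cells with all 6 genes hold Ebf2 by construction. Members with 4 genes held Grem1 about as often as the cells just outside.

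**Figure D2:**
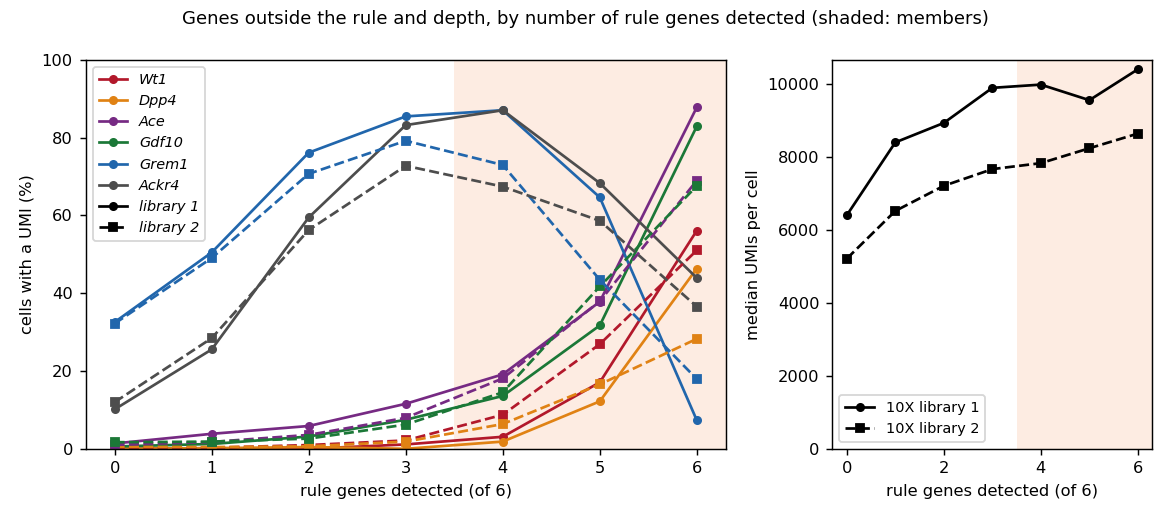
Left, share of cells with a UMI (percent) of 6 genes that the rule did not use, by the number of rule genes detected in a cell (horizontal axis; solid lines library 1, dashed lines library 2; members shaded). Right, median UMIs per cell along the same axis; Wt1, Dpp4, Ace and Gdf10 were highest and Grem1 lowest in cells with all 6 genes.

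The members were first checked against mesothelial genes, because Wt1 is used to mark that layer. Mesothelin (Msln), the uroplakin Upk1b, Lrrn4, Gpm6a and Bnc1 were at 0 in every member of both libraries, which allows up to 1.05% of the members of library 1 and 0.320% of those of library 2. The uroplakin Upk3b was found in 0 of 285 and 0.426% of the members, Krt19 in 0 and 0.853%, Krt8 in 0 and 0.959%, and Krt18 and Krt7 each in 0 and 0.107%. Cells with at least 3 of 8 core mesothelial genes did exist, 2 in library 1 and 15 in library 2, and 2 and 13 of them held Wt1, but 0 of them were members. The defining genes of mesothelium were thus at or near 0, and the name mesothelial is not used for these cells.

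Of the wider mesothelial list, 4 genes of 17 in the table were frequent enough to test. The surface gene Nkain4 was found in 50.9% and 32.8% of the members but in 67.3% and 54.3% of Ackr4 crypt cells. Aldh1a2, the retinal dehydrogenase of mesothelium and of some gut fibroblasts, was found in 25.6% and 33.9% of the members against 41.3% and 45.5% of all other cells. Neither gene was highest in the members. In the test against all other cells described below, Wt1, Nkain4 (difference 0.10) and the claudin Cldn15 (0.02) were called higher and Aldh1a2 (-0.18) lower. Of all genes tested 31.7% were called higher and 29.7% lower. Wt1 and Cldn15 were in under 5% of the other cells, so they entered only through the members and could only be called higher. The calls of Nkain4 and Cldn15 ended without limma's mean trend. Under a rule of at least 5 genes the difference of Nkain4 turned to -0.081.

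What the members did hold were fibroblast genes. Pdgfra, the receptor that marks most gut fibroblasts, was found in 93.3% and 94.5% of them, and C3 in 100% and 99.3%. Summed over 12 immune genes, the members held 0.20 and 0.428 UMIs per 10,000, against 0.751 and 0.937 in all other cells, and Cd3e was at 0. The sums were 0.202 and 0.191 against 0.255 and 0.308 for 11 endothelial genes, with Cdh5 at 0, and 0.130 and 0.468 against 0.153 and 0.836 for 13 epithelial genes, with Alpi at 0. Smooth muscle genes summed to 1.89 and 2.72 against 17.4 and 20.8, pericyte genes to 3.55 and 5.20 against 16.6 and 19.6, and glial genes to 1.14 and 1.38 against 1.79 and 2.49. These mean sums were lower in the members than in the rest in both libraries. For the immune, endothelial and epithelial lists the median cell was at 0 in the members and in the rest, and the share of cells with a UMI differed little. It was 15.4% and 15.6% against 16.3% and 14.4% for immune genes, 18.9% and 13.5% against 17.4% and 13.2% for endothelial genes, and 11.2% and 28.1% against 11.2% and 26.1% for epithelial genes.

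Wt1 (chromosome 2 of GRCm38, 105126529 to 105173616, plus strand) was found in 42 of 285 members of library 1, or 14.7% (10.8% to 19.4%), and in 196 of 938 members of library 2, or 20.9% (18.3% to 23.6%). In all other 10X cells its share was 0.265% and 0.731%, in Ackr4 crypt cells 0.162% and 0.494%, and in Fibin-like cells 0 of 102, which allows up to 2.94%, and 2.56%. In the Ptprc-detected cells of library 2 it was 0 of 72. The members' intervals lay apart from those of all other cells, Ackr4 crypt cells and Fibin-like cells in both libraries. These intervals are over cells, which are not replicates, so they cover counting error only and are no test between groups.

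At an equal depth of 2000 UMIs per cell, which left out 4 and 5 members and 58 and 306 other cells, the Wt1 share was 7.83% and 8.68% in the members and 0.0907% and 0.305% in all other cells. The level was 0.405 and 0.557 UMIs per 10,000 in the members against 0.0175 and 0.0228 in the rest. The mean natural log value was higher by 0.21 (SE 0.0148; 0.17 and 0.24 in the 2 libraries; limma, Benjamini-Hochberg adjusted p = 2.69e-40, and adjusted p = 0.00922 without the mean trend that lets limma borrow the spread from genes of like mean). Genes needed a UMI in at least 5% of the cells of either group. Wt1 met this only through the members, where it is high, and could only be called higher.

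Wt1 and Ebf2 went together. Of the 56 and 253 members with an Ebf2 UMI, 51.8% and 49.0% also had one of Wt1, and of the members without Ebf2 5.68% and 10.5% did. As Ebf2 is one of the rule's genes, this is a description. Median depth was 8651 and 8175 UMIs with Ebf2 and 10139 and 8068 without.

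To ask what else set the members apart, they were compared with all other 10X cells of the same library by limma on the mean natural log value, with the library as a block. Of 1618 genes found in at least 5% of the cells of either group, 994 were called, meaning an adjusted p under 0.05 and the same direction in both libraries. This is 61.4% of the genes tested, 31.7% higher in the members (513) and 29.7% lower (481), so that a single call carries little weight and sizes are given throughout. A gene in under 5% of the other cells, such as Wt1, Ace, Dpp4, Cdon, Prrx1 and Gata6, entered only through the members and could only be called higher. In the same way a gene in under 5% of the members, such as Myh11, Kcnj8, Wif1, Foxl1 and Cxcl9, could only be called lower. The median difference over all genes was -0.0031 and the differences of the libraries went together, with r = 0.964 across genes, which are not independent replicates. In this fit limma took the spread wholly from genes of like mean, and without that trend the prior weighed only 2.28 degrees of freedom and 748 genes were called.

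C3, the central component of complement, led the genes that were higher. It stood at 45.3 and 41.6 UMIs per 10,000 in the members of library 1 and library 2 and at 20.8 and 20.3 in the other cells, a difference of 1.45 in mean natural log value (SE 0.0822; limma adjusted p = 1.30e-61). The serine protease gene Prss23 stood at 20.5 and 16.0 against 9.16 and 6.52, a difference of 1.37 (SE 0.0793; limma adjusted p = 1.68e-59). Both genes were about as much higher in one library as in the other. C3 was not called against Ackr4 crypt cells, a comparison described below.

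Ebf1 (chromosome 11, 44617317 to 45008091), the founding early B cell factor and a regulator of mesenchymal as well as lymphoid cells, was at 5.98 and 6.11 UMIs per 10,000 in the members against 1.35 and 1.02, a difference of 1.24 (SE 0.0518; limma adjusted p = 1.20e-106). It was found in 93.0% and 90.3% of the members against 33.9% and 27.2% of the other cells, and also in 47.2% of the Ptprc-detected cells of library 2, where B cells are known to use it. Dpep1, a dipeptidase that cleaves leukotriene D4, was at 8.98 and 8.81 against 2.91 and 3.05 (difference 1.14). Next came the metallothionein Mt1 (1.12), the small proteoglycan Ogn (1.10), the tetraspanin Cd81 (1.07), the procollagen C-proteinase enhancer Pcolce2 (1.05), Ly6a, also known as Sca-1 (0.92), and the immediate-early factor Egr1 (0.90).

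Adamdec1, the metalloprotease of villus fibroblasts, had the largest difference in the other direction. It was at 2.08 and 8.56 UMIs per 10,000 in the members against 58.6 and 72.1 in the other cells, a difference of -2.29 (SE 0.0801; limma adjusted p = 6.49e-143). The matrix glycoprotein gene Tnc was at 0.263 and 0.698 against 4.79 and 6.45 (difference -1.14), and Rgs5, a regulator of G protein signalling known from pericytes, at 3.33 and 4.78 against 14.7 and 16.9 (-1.13). Tmem176b (-0.84), Igfbp5 (-0.84), Mfap4 (-0.79), smooth muscle actin Acta2 (-0.78), Ncam1 (-0.73), the collagen Col6a5 (-0.68) and the tropomyosin Tpm1 (-0.68) followed. For these 20 genes the limma adjusted p lay between 6.49e-143 and 1.91e-23, and between 0.00094 and 0.00341 without the mean trend.

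**Figure D3:**
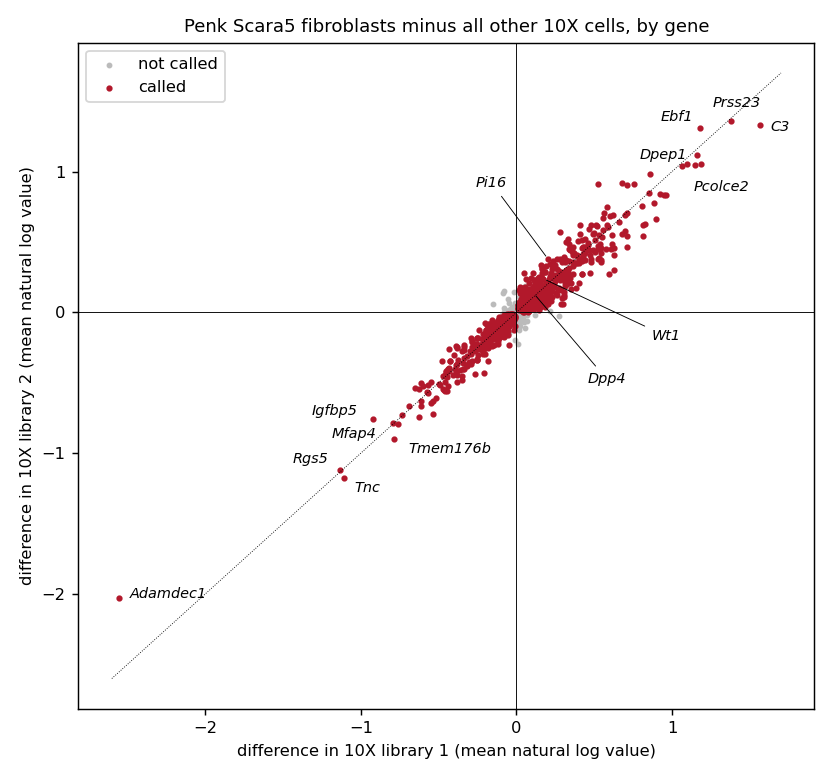
Difference in mean natural log value between Penk Scara5 fibroblasts and all other 10X cells in library 1 (horizontal axis) and in library 2 (vertical axis), 1 point per gene tested, red where called; the dotted line marks equal differences. C3 (1.45), Prss23 (1.37) and Ebf1 (1.24) lie at the upper right, Adamdec1 (-2.29) at the lower left, and Wt1 (0.21) near the centre.

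Since Adamdec1, a villus gene, was found in 79.5% and 94.0% of all other cells, the members were also compared with crypt fibroblasts alone. Ackr4 crypt cells were defined as cells outside the members and the Fibin-like cells with Sox6 at 0 and a UMI of both Grem1 and Ackr4, 618 in library 1 and 2633 in library 2, and their median depth of 9635.5 and 7672 UMIs was close to that of the members. Against them 178 of 1510 genes were called in limma, or 11.8%, with 130 higher in the members (8.61%) and 48 lower (3.18%), and 384 genes had an unadjusted p under 0.05. The count fell to 104 without the mean trend, and to 96 when UMIs were summed per library and group.

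Ebf1 had the largest difference among the genes that were higher, at 5.98 and 6.11 UMIs per 10,000 against 3.07 and 2.41 in Ackr4 crypt cells, a difference of 0.67 (SE 0.0701; limma adjusted p = 0.00188). Lpl was at 3.77 and 5.55 against 0.827 and 1.33 (difference 0.63; limma adjusted p = 0.00304), and Gdf10 at 1.97 and 2.15 against 0.121 and 0.0451 (0.49; limma adjusted p = 0.00793). Gdf10 was found in 28.8% and 31.1% of the members and in 5.18% and 2.92% of Ackr4 crypt cells. The members of both libraries were above the crypt cells of both for each of these 3 genes, but how many of all genes tested share this was not counted. Lpl was not particular to the members: all other cells held it at 3.77 and 4.99, and against them it was not called (-0.04; limma adjusted p = 0.50). The call of Gdf10 ended without the mean trend (as did those of Fbln2 and Mfap5), and that of Ebf1 on summed UMIs.

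Next in size, Fbln2, an elastic fibre protein, was higher by 0.61, the metalloprotease inhibitor Timp3 by 0.49, the fibulin Efemp1 by 0.47, the microfibril protein Mfap5 by 0.44 and the heparan sulfate proteoglycan Gpc3 by 0.44. Dpep1 (0.47) and the Hedgehog co-receptor Gas1 (0.44) completed the 10 largest increases. The genes that fell most were Rgs5 (-0.94), the mineralisation inhibitor Mgp (-0.79), the secreted Wnt antagonist Sfrp1 (-0.78), the fibulin Fbln1 (-0.74), Stc2 (-0.72), Mfap4 (-0.64), Apoe (-0.62), Tgfbi (-0.62), Tmem176b (-0.60) and Ifitm1 (-0.51). For these 20 genes the limma adjusted p lay between 0.00188 and 0.0218, of which 15 stayed under 0.05 without the mean trend and 9 on summed UMIs.

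Several genes of low level were rare in Ackr4 crypt cells. Of those given next Wt1, Dpp4, Cdon, Prrx1 and Gata6, and Gdf10 above, were in under 5% of the crypt cells of both libraries together, so they entered the test only through the members, where they are high, and could only be called higher. Their p-values are given with that limit. Wt1 was 0.405 and 0.557 UMIs per 10,000 against 0.00126 and 0.00833 (limma adjusted p = 0.000597). Ace was found in 34.4% and 32.1% of the members against 8.58% and 4.22% of Ackr4 crypt cells (difference 0.36; limma adjusted p = 0.000319). Dpp4 was found in 11.2% and 12.9% against 0.162% and 0.456% (0.13; limma adjusted p = 0.000319), but also in 11.1% of the Ptprc-detected cells of library 2, where lymphocytes are known to carry it.

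The Hedgehog co-receptor gene Cdon was found in 15.8% and 25.2% of the members against 1.46% and 1.79% of Ackr4 crypt cells (0.22; limma adjusted p = 0.00304), and Fst, the activin antagonist follistatin, in 26% and 23.3% against 9.87% and 6.57% (0.21; limma adjusted p = 0.000319). Cdon was also found in 11.8% and 14.7% of Fibin-like cells, nearer to the members. Of 2 factors singled out after their values were seen, Prrx1, a limb and craniofacial mesenchyme factor, was found in 18.6% and 29.96% against 0.485% and 1.48% (0.26; limma adjusted p = 0.00304). The other, Gata6, was found in 10.5% and 12.8% against 0.162% and 0.152% (0.10; limma adjusted p = 0.000319).

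Fibin-like cells, 102 and 741 cells with Sox6 at 0 and at least 3 of Chodl, Dner, Thbs2 and Ptn, are the group from which the rule sets the members apart, and only genes outside the rule were tested. Of 1701 genes, 1204 were called in limma, or 70.8%, with 604 higher (35.5%) and 600 lower (35.3%) in the members. C3 was 45.3 and 41.6 UMIs per 10,000 against 5.44 and 9.27 (difference 2.70; limma adjusted p = 2.73e-05), Ly6a 13.0 and 14.2 against 1.28 and 2.06 (1.98; limma adjusted p = 9.18e-06) and the fibrillar collagen partner Col14a1 16.8 and 16.1 against 2.64 and 3.87 (1.98; limma adjusted p = 4.53e-05). For these 3 genes the groups did not overlap between libraries, but how many of all genes tested share this was not counted.

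Fibin itself was at 0.0560 and 0.136 UMIs per 10,000 in the members against 28.7 and 18.3 (difference -2.62; limma adjusted p = 3.28e-05). The ion transport regulator Fxyd6 (-2.20), Tnc (-2.17), the nitric oxide receptor subunit Gucy1a1 (-2.03) and the potassium channel Kcnn3 (-1.80) fell with it. Gdf10 was higher in the Fibin-like cells than in the members, at 5.47 and 4.49 against 1.97 and 2.15 (-0.73; limma adjusted p = 0.000247), so that the members were not the highest group. Pdgfra was likewise lower in the members, at 4.71 and 6.54 against 22.5 and 23.3 (-1.29; limma adjusted p = 7.20e-05).

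Genes were then read by list. Of 15 adventitial fibroblast genes tested against all other cells, 14 were higher in the members and 1 was lower, beside 31.7% and 29.7% of all genes, and their median difference was 0.29. Pcolce2 was at 4.99 and 4.50 UMIs per 10,000 against 1.57 and 1.18. Mfap5 was at 4.86 and 4.88 against 2.07 and 1.48 (difference 0.83), and the endosialin gene Cd248 at 3.85 and 4.08 against 1.84 and 1.68 (0.64). Fibronectin, Fn1, was the one that fell, at 7.64 and 11.2 against 11.8 and 15.1 (-0.41; limma adjusted p = 1.07e-06).

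Pi16, the gene that defines the adventitial type in many organs, was found in 29.5% and 33.7% of the members against 12.6% and 9.62% of all other cells (0.29; limma adjusted p = 1.43e-27). Summed over the list, the members held 50.7 and 58.1 UMIs per 10,000, all other cells 33.0 and 34.2, and Ackr4 crypt cells 38.4 and 39.1. In the comparison with Ackr4 crypt cells 8 of the 15 were higher and 0 lower (12 and 0 at an unadjusted p under 0.05), beside 8.61% and 3.18% of all genes, and Pi16 (adjusted p = 0.0579 in limma) and Ly6a were not among the 8, while Dpp4 and Thy1, which entered only through the members, were. The defining genes Cd34, Dpt, Clec3b and Col15a1 were not analysed here.

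Of 9 crypt fibroblast genes, 7 were higher and 1 was lower than in all other cells, where 31.7% of all genes tested were higher and 29.7% lower. Ackr4 was at 3.67 and 2.52 UMIs per 10,000 against 1.34 and 1.24 (0.59), the cytokine Il6 at 4.50 and 4.95 against 1.90 and 2.72 (0.47), and Grem1 at 11.1 and 5.70 against 6.93 and 4.37 (0.46; limma adjusted p = 1.81e-14). The direction of Grem1 rests on the members with 4 genes: under a rule of at least 5 genes its difference was -0.19. Sfrp1 was lower, at 9.98 and 10.5 against 17.1 and 19.5 (-0.51). Of 8 villus fibroblast genes Adamdec1, Fgfr2, Edil3, Cxcl9 and Ccl8 fell and the ferroxidase Cp rose (0.30). Cxcl9 and Ccl8 were in under 5% of the members, so they entered only through the other cells and could only be called lower.

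All 8 smooth muscle genes and all 5 pericyte genes tested were lower in the members than in all other cells, beside 29.7% of all genes, though the sign of Hhip (-0.04) turned under a rule of at least 5 genes. Myh11, Kcnj8 and Rgs4 were in under 5% of the members and entered only through the other cells. They could only be called lower, so these counts are partly fixed by the filter. Against Ackr4 crypt cells Rgs5 was the only one of either list called lower, and Hhip was called higher, at 0.343 and 0.375 UMIs per 10,000 against 0.0188 and 0.129 (0.08; limma adjusted p = 0.00681, and 0.0519 without the block), a gene that entered through the members, beside 8.61% of all genes higher and 3.18% lower. Of 9 subepithelial genes 7 were lower than in all other cells, among them Tnc and the BMP ligand gene Bmp5, at 0.00421 and 0.150 UMIs per 10,000 against 1.66 and 2.63 (-0.60). Wif1, Nrg1 and Foxl1, also among the 7, were in under 5% of the members. They entered only through the other cells and could only be called lower. F3, the tissue factor gene, was the 1 gene of this list called higher, beside 29.7% of all genes lower and 31.7% higher, at 0.851 and 1.11 against 0.593 and 0.623 (0.16; limma adjusted p = 4.05e-08), and it was also called higher against Fibin-like cells (0.34) and Ackr4 crypt cells (0.18).

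In the Wnt list, 6 genes of 15 rose and 7 fell against all other cells. Beside the 31.7% and 29.7% of all genes these counts do not set the list apart, and its genes are given singly. The receptor gene Fzd4 was at 1.47 and 1.57 UMIs per 10,000 against 0.486 and 0.399 (0.47), and the R-spondin Rspo1 at 0.473 and 0.416 against 0.144 and 0.119 (0.18). The non-canonical ligand gene Wnt5a (0.15) and Rspo3 (0.11) rose less. Sfrp1, the receptor genes Fzd1 (-0.29) and Fzd2, and the ligand gene Wnt4, at 0.0575 and 0.139 against 0.693 and 1.09 (-0.25), fell. In the members against Ackr4 crypt cells Wnt5a, at 0.993 and 1.18 against 0.278 and 0.251 (0.30; limma adjusted p = 0.0146), Fzd4, Rspo1 and Sfrp4 rose, and Sfrp1, Fzd1 and Dkk2 fell. That call of Wnt5a ended without the mean trend.

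Of 22 genes of the BMP and activin list, 10 rose and 8 fell, which like the Wnt counts is near the 31.7% and 29.7% of all genes. Those that rose were led by Grem1 and by Gdf10, at 1.97 and 2.15 UMIs per 10,000 against 0.309 and 0.315 (0.44), the target gene Id3 (0.30) and Fst (0.24). Those that fell were led by the ligands Bmp5 (-0.60), Bmp2 (-0.29), Tgfb2 (-0.24) and Bmp7 (-0.21). In the Hedgehog list of 5, the co-receptors Gas1 (0.80) and Cdon (0.22) rose, and the receptor and target gene Ptch1, at 0.776 and 0.743 against 3.11 and 3.1, fell by 0.62 on the natural log scale. Hhip, a Hedgehog-binding target, was lower by a small margin (-0.04; limma adjusted p = 0.0471), and that call ended without the mean trend, without the filter and without the block. Against Fibin-like cells Cdon was called higher but Gas1 was not called.

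Among 11 complement and acute phase genes, 9 rose and 1 fell, beside 31.7% and 29.7% of all genes. Beside C3 they included the endotoxin-binding Lbp, at 1.17 and 1.01 UMIs per 10,000 against 0.383 and 0.283 (0.37), and Cp. Masp1, a protease of the lectin pathway, fell (-0.09). Against Ackr4 crypt cells Lbp was the 1 gene of this list to rise and Masp1 (-0.07) the 1 to fall, beside 8.61% and 3.18% of all genes, and C3 was not called. Of 26 interferon-inducible genes, 11 rose and 5 fell, so that about as many were called as the 61.4% of all genes. Those that rose most were the DNA-sensing p200 family genes Ifi204 (0.52), Ifi207 (0.45), Ifi211 (0.34) and Ifi202b (0.32), while Bst2 (-0.30) and Iigp1 (-0.14) were among those that fell. The p200 genes are near-identical neighbours, so reads may have been split between them.

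Elastic fibre genes split, with 7 of 15 higher and 6 lower, in a comparison with 31.7% of all genes higher and 29.7% lower. Mfap5 (0.83), Fbln2 (0.72), the tenascin Tnxb (0.67) and Emilin2 (0.39) rose, and Mfap4 (-0.79) and Emilin1 (-0.51) fell. Of 14 collagen genes 5 rose and 5 fell, about the shares of all genes, and of 33 other matrix genes 18 rose, led by Ogn and Pcolce2, and 8 fell, led by Tnc. Of 4 genes of the IGF system, 3 fell, among them Igfbp5 and Igfbp3 (-0.58), and 0 rose at either an adjusted or an unadjusted p under 0.05 in limma. Igfbp6, also of this system, is a gene of the rule and was not tested; it stood at 8.07 and 9.58 UMIs per 10,000 in the members against 2.16 and 1.57. The next list holds mainly enzymes that act on vasoactive peptides, nucleotides, lipids and other substrates. Of its 22 genes tested, 19 rose and 1 fell, beside 31.7% and 29.7% of all genes. Ptgir, a prostacyclin receptor, and Apod, a lipid carrier, are no enzymes but are among the 19. Genes that rose included Dpep1, the ectonucleotidase gene Entpd2, at 4.28 and 3.85 UMIs per 10,000 against 2.35 and 1.89 (0.60), the monooxygenase gene Fmo2 (0.58) and the lipid phosphatase gene Plpp3 (0.50), while the cyclooxygenase gene Ptgs1 fell (-0.30). Set against Ackr4 crypt cells, 9 of 22 rose and 0 fell (12 and 0 at an unadjusted p under 0.05 in limma), beside 8.61% and 3.18% of all genes.

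Of 24 lineage transcription factors, 15 rose and 8 fell. For this and the next lists too, 31.7% of all genes rose and 29.7% fell against all other cells, and 8.61% and 3.18% against Ackr4 crypt cells. After Ebf1, Klf4 (0.83) and Meis2 (0.39) were among those that rose, and Foxf2, at 0.0533 and 0.183 UMIs per 10,000 against 0.693 and 0.889 (-0.31), and Tbx2 (-0.27) led those that fell. Of 23 tested against Ackr4 crypt cells, Ebf1, Zfhx4, Prrx1, Wt1, Gata6 and Ebf3 rose and 0 fell (10 and 2 at an unadjusted p under 0.05 in limma), but Prrx1, Wt1, Gata6 and Ebf3 entered this test only through the members, so the count is partly fixed by the filter. Among chemokines and cytokines 12 of 22 rose, with the neutrophil attractant Cxcl1 at 3.04 and 3.93 against 1.09 and 1.30 (0.47) beside Il6, and 5 fell, led by Cxcl14 (-0.16) and Il34 (-0.15). Of 30 vascular and neural ligands and receptors, 11 rose, led by the lymphangiogenic factor Vegfd (0.45), the guidance protein Flrt2 (0.40) and adrenomedullin, Adm (0.39), and 14 fell, led by the VEGF co-receptor Nrp2 (-0.39) and Kitl (-0.37).

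Retinoid genes split evenly, with Adh1 (0.41) among 4 that rose and Aldh1a3 (-0.63) and Aldh1a2 (-0.18) among 4 that fell, of 9. All 7 metallothionein and redox genes rose, including Mt2 (0.73), and so did 24 of 30 immediate-early and heat shock genes, such as Egr1 (0.90) and Fosb (0.89), with 0 that fell (0 also at an unadjusted p under 0.05 in limma). Genes of these last lists are known to respond to tissue digestion. Against Ackr4 crypt cells of the same digest, 0 immediate-early and heat shock genes rose and 2 fell, Hspa1a (-0.40) and Dnajb1 (2 and 4 at an unadjusted p under 0.05 in limma), and 0 of 8 metallothionein and redox genes were called (2 and 0 at an unadjusted p under 0.05).

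**Figure D4:**
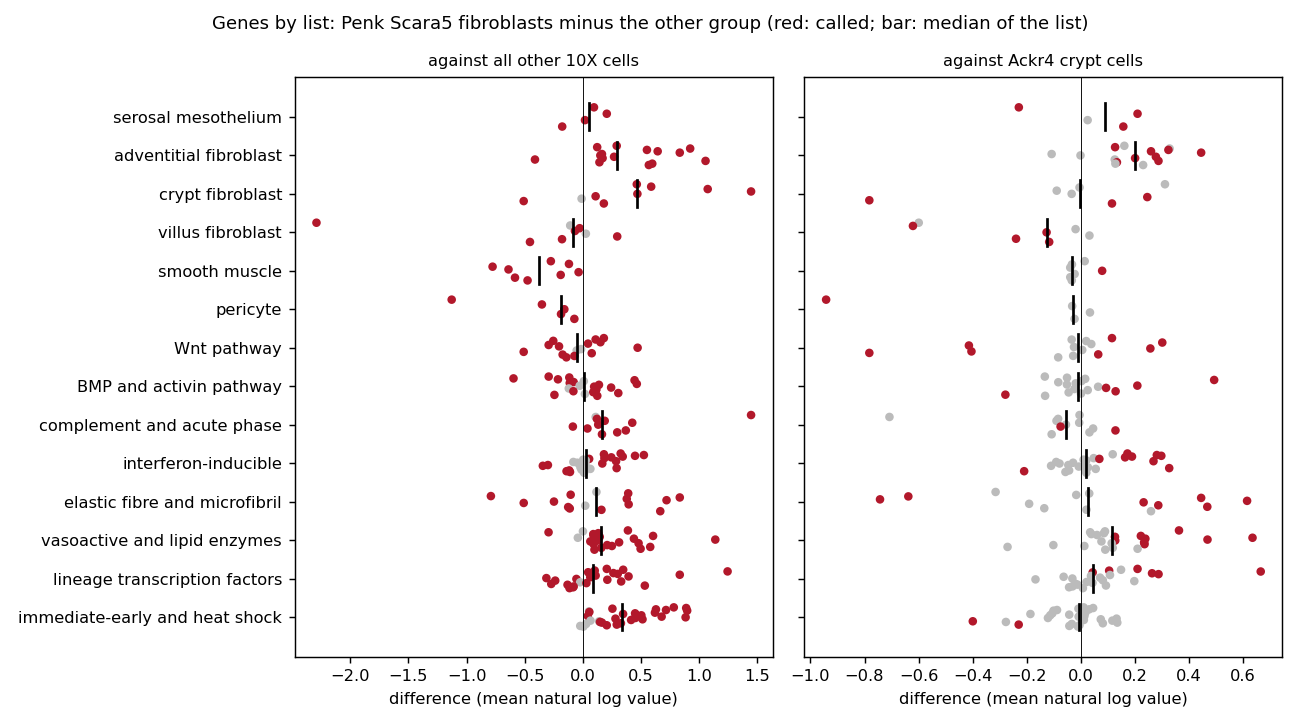
Difference in mean natural log value (horizontal axis) of each gene of 14 lists between Penk Scara5 fibroblasts and all other 10X cells (left) or Ackr4 crypt cells (right); red points were called, and the bar marks the median of the list. Adventitial genes lie to the right in both panels, with medians of 0.29 and 0.20, while immediate-early and heat shock genes do so on the left only, with medians of 0.34 and -0.01.

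The early B cell factor family was represented by Ebf2 in the rule and by Ebf1 and Ebf3, both called higher against all other cells, Fibin-like cells and Ackr4 crypt cells. The calls of Ebf3 against all other cells and Ackr4 crypt cells ended without the mean trend (limma adjusted p = 0.0684 and 0.104). The promoters were searched for the palindromic EBF motif TCCCNNGGGA, which reads the same on both strands. RefSeq promoter windows of GRCm38.p6, from 250 bases before to 50 after a start, held it in 297 of 32851 windows (0.904%). The shares that follow are per gene, with the motif in any of its windows, and cannot be set against that share. Genes tested had it in 25 of 1193 cases (2.096%), genes higher in the members in 7 of 361 (1.94%) and genes lower in 11 of 350 (3.14%). The share among genes that rose was close to that among all genes tested. The windows of Inmt, Igfbp6 and Ebf1 did not hold them. Dpp4 is the 1 adventitial gene whose window did, and its 250 bases before the start, at chr2:62412232-62412481 on the minus strand, are shown with the motif, which begins 115 bases before the start, in capitals.
Dpp4: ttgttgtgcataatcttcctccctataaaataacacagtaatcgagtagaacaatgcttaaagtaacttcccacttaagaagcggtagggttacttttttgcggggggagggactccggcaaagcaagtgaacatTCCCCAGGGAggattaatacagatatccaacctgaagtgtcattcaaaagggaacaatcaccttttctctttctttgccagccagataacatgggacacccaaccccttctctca

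The members with a Wt1 UMI, 42 in library 1 and 196 in library 2, were last compared with the 243 and 742 members without one. All 6 rule genes were held by 41 and 145 members, of which 23 and 74 had Wt1. The groups thus also differ in the number of rule genes, and its part in what follows was not tested. Median depth was 9341 and 9698 UMIs with Wt1 and 10023 and 7840 without, so that the deeper group differed between libraries. Of 1616 genes, 332 were called in limma, or 20.5%, with 165 higher (10.2%) and 167 lower (10.3%). This rests on the spread that limma takes from genes of like mean: without that trend 0 genes were called, with 435 at an unadjusted p under 0.05 and a lowest adjusted p of 0.0583, and 10 of 928 genes were called at 2000 UMIs per cell. The called genes given next have the same direction in both libraries because a call requires it.

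Lpl was at 11.5 and 11.8 UMIs per 10,000 in Wt1-detected members against 2.44 and 3.91 in the others, a difference of 1.32 (SE 0.126; limma adjusted p = 4.94e-05). Gdf10 was at 5.97 and 5.78 against 1.28 and 1.20 (1.11; limma adjusted p = 1.61e-05), and was found in 78.6% and 70.9% against 20.2% and 20.6% of the cells. Gas1 (0.87), Fbln2 (0.84), the calcium-binding matrix protein Smoc2 (0.79), Wnt5a (0.75), the phospholipase Pla1a (0.73), Ace (0.64), the elastogenic Fbln5 (0.64) and Gpc3 (0.63) followed. Neither Lpl nor Gdf10 overlapped between the groups across libraries, but with n = 2 this carries little weight. Its share over all genes tested was not counted.

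Among the genes that fell were Grem1 and Sfrp1 of the crypt list, of which 4 of 9 genes fell and 1, Rspo1, rose. Grem1 was at 1.08 and 1.24 UMIs per 10,000 against 12.8 and 6.87 (-1.37; limma adjusted p = 4.94e-05), and was found in 19.0% and 27.0% against 77.8% and 62.8% of the cells. Mgp was at 7.29 and 22.7 against 37.4 and 45.0 (-1.42; limma adjusted p = 0.00034) and Sfrp1 at 2.82 and 3.69 against 11.2 and 12.3 (-1.29; limma adjusted p = 4.94e-05). Fbln1 (-1.19), the complement gene C4b (-1.16), Stc2 (-1.02), Hspa1a (-0.96), Tmem176b (-0.95), Sparcl1 (-0.88) and the collagen Col8a1 (-0.87) completed the list. C3 was not called (-0.01).

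**Figure D5:**
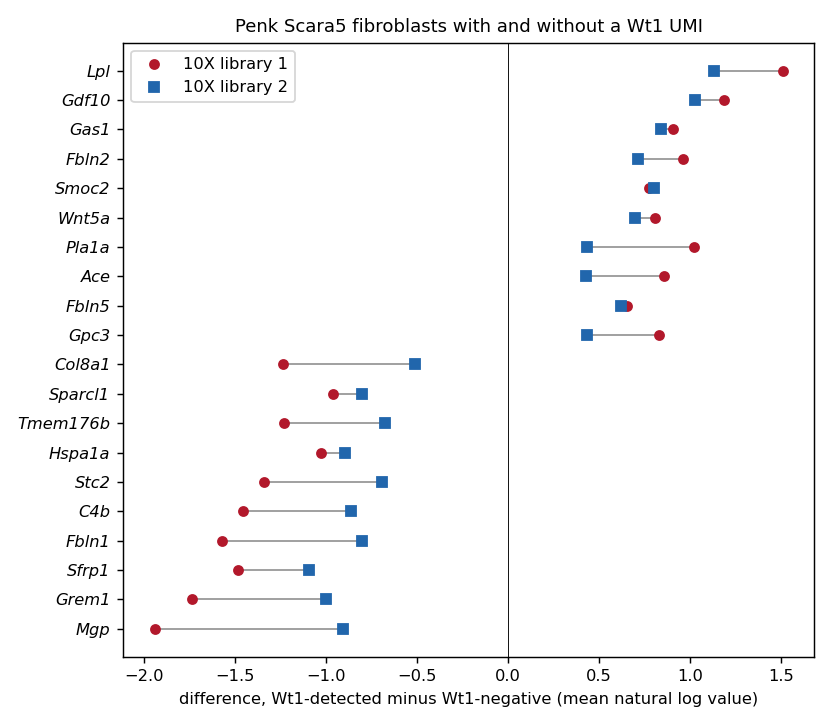
Difference in mean natural log value (horizontal axis) between Penk Scara5 fibroblasts with and without a Wt1 UMI, for the 10 genes per direction of largest difference, in library 1 (circles) and library 2 (squares). Lpl (1.32) and Gdf10 (1.11) were furthest to the right and Mgp (-1.42) and Grem1 (-1.37) furthest to the left, with the same direction in both libraries for all 20 genes, as a call requires.

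Adventitial genes rose in 7 and fell in 1 of 15 cases, beside 10.2% and 10.3% of all genes tested, the shares against which the counts that follow are also to be read. Dpp4 was found in 45.2% and 33.7% of Wt1-detected members against 5.35% and 7.41% of the others (0.34; limma adjusted p = 0.000435), and Pi16 in 38.1% and 49.0% against 28.0% and 29.6% (0.25; limma adjusted p = 0.0162). Factors rose in 8 of 22 cases and fell in 1: Gata6 was found in 40.5% and 34.2% against 5.35% and 7.14% (0.27; limma adjusted p = 0.00109), Osr1 rose by 0.50 and Foxp2 fell by 0.40. The factor Hand1, also among the 8, was in under 5% of the members as a whole. It entered only through the Wt1-detected members and could only be called higher. The Hedgehog co-receptor gene Cdon was found in 59.5% and 61.7% against 8.23% and 15.5% (0.55; limma adjusted p = 6.56e-05).

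Collagens were lower in 7 and higher in 0 of 13 cases (8 and 0 at an unadjusted p under 0.05 in limma), and complement genes in 3 and 0 of 11 (5 and 1). Of 30 immediate-early and heat shock genes 9 were lower and 1 was higher. In the chemokine list Cxcl1 (0.49) rose and Il6 (-0.43) and Ackr4 (-0.45) fell. Nkain4, of the mesothelial list, was lower with Wt1 than without, at 0.269 and 0.273 UMIs per 10,000 against 1.34 and 0.755 (-0.36; limma adjusted p = 0.00154).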

How the data were processed

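The table deposited by the authors holds natural log values: per the study's methods, reads were aligned to mm10 with Cell Ranger 3.1.0, cells were filtered with Seurat, each cell was scaled to its total UMIs and the natural log was taken. In the 10X cells 100% of the values above 0 were whole UMIs (tolerance 0.01), so UMIs per 10,000 and depth could be recovered. The table lists 0 mitochondrial genes. Of the gene rows used, 3891 were complete and 1, which ends early, was left out. Smartseq2 cells, whose values were integrated by the authors onto the 10X values, were not used here. The test was run on the deposited log scale, and UMIs summed per library and group were an alternative; no count model was fitted.

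The members and lists were chosen with earlier results of these data known. The test was limma 3.58.1 in R 4.3.3 on the means of the natural log values in each library and group, with a mean trend and the library as a block. Adjustment by Benjamini-Hochberg ran over all genes detected in 5% or more of the cells of either group, leaving out the genes of the rule. The groups pair by library, since they came from the same libraries. Fibin-like cells, Ackr4 crypt cells and remaining cells shared 1 fit with the members. Called means an adjusted p under 0.05 with the same direction in both libraries. Named genes are those of the rule and Wt1, the 10 called genes of largest difference per direction, and at most 4 called genes per direction in each list with its defining genes; some genes are not reported here. Shares carry exact 95% intervals and a count of 0 is limited at 3 counts. Cells were thinned to 2000 UMIs with seed 7. Doublets were not removed: Scrublet (Scanpy 1.11.5) marked 3 and 518 cells at its own threshold, and an alternative leaves out the 52 and 1646 cells of highest score. Other alternatives changed the filter, the trend, the block, the scale (log2 of summed UMIs per 10,000, pseudocount 0.1), the rule and the cells compared. The model was tested on simulated data. Coordinates are of GENCODE M21 and promoters of RefSeq. Scripts ran in Python 3.11.15 with pandas 2.3.3, numpy 2.4.6 and scipy 1.17.1, and figures were drawn with matplotlib 3.10.9.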

Additional observations from a re-analysis of the deposited data

How the results depend on the processing

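For the called genes named, directions were the same in each library alone, as the definition of a call requires. The count of genes called against all other cells moved from 994 to 633 of 984 genes at 2000 UMIs per cell, and against Fibin-like cells from 1204 to 767 of 1025. Against Ackr4 crypt cells it moved from 178 to 79 without a filter, 104 without the mean trend, 96 on summed UMIs and 115 at 2000 UMIs, and between Wt1-detected and other members from 332 to 0 without the mean trend (435 at an unadjusted p under 0.05) and 10 at 2000 UMIs. Without the replicate block, which pairs the groups by library, the counts were 684, 1132, 112 and 172, and 0 adventitial genes were lower. The calls of Fn1, Grem1, Id3, Cp, Iigp1, Hhip, Nkain4, Cldn15 and Aldh1a2 against all other cells, of Mgp, Mfap4, Hspa1a, Nkain4 and Aldh1a2 against Ackr4 crypt cells, and of Pi16, Ackr4 and Rspo1 by Wt1 rested on that block. The share of members was 21.7% and 13.4% with at least 3 genes, 4.83% and 3.03% with at least 5, 7.18% in library 2 without the conditions on Sox6 and the Fibin genes, and 2.66% and 1.98% when cells were thinned before the rule. The share of members with Wt1 was 8.14% and 11.3% with at least 3 genes, 30.1% and 34.9% with at least 5, 7.83% and 8.68% when the members chosen at full depth were thinned, and 36.4% and 33.1% of the 66 and 278 cells that the rule kept after thinning, with Wt1 read at full depth. With at least 5 genes, Grem1 (-0.19), Nkain4 (-0.081) and Hhip (0.0080) turned direction against all other cells, and the call of Aldh1a2 ended. Those of Wnt5a and Iigp1 ended with at least 3 genes, and that of Rspo3 at 2000 UMIs. The cause of these changes was not tested. Leaving out the cells of highest doublet score gave 933, 1238, 208 and 279 calls. Depth limits every share of cells with a UMI, since a cell without one may still express the gene.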
